A study of Mus musculus with 19 samples.

Results

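Immediate early genes are transcribed within minutes of a growth signal, without new protein synthesis, and were followed here in mouse embryonic stem cells with and without Trim71 and Lin28a. The set was a list of 10 genes: the zinc finger factors Egr1, Egr2 and Egr3, their corepressors Nab1 and Nab2, the AP-1 subunits Fos, Jun and Junb, and the early response genes Ier2 and Ier3. The deposited table of 21685 genes held 9 of them. Egr3 was not analysed here, and Egr2 lay below the filter on low values, so 8 of the 10 entered the tests, among 14988 genes tested. The list was chosen by measured values: Egr1 had been seen among the genes that were higher in the 2 genotypes without Lin28a, and its family, partners and fellow early genes were put beside it. Levels of the 9 genes across the Lin28a genotypes are therefore a description without a test. Tests are given for Trim71 loss and for the difference between its effects with and without Lin28a. That difference draws on every genotype.

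RNA sequencing had been carried out on male C57BL/6 embryonic stem cells, kept in foetal calf serum with leukaemia inhibitory factor and sorted with magnetic beads for the surface antigen SSEA-1. Both loci were floxed in the control, Trimfl/fl - Lin28afl/fl, written WT-WT below with the Trim71 state first. KO-WT was Trim-/- - Lin28afl/fl, WT-KO was Trimfl/fl - Lin28a-/-, and KO-KO was Trim-/- - Lin28a-/-. Per the labels, the floxed Trim71 was deleted in culture with 4-hydroxytamoxifen (500 nM, 2 days), and harvest followed after 7 or more further days. The labels give this drug as the means of deleting Trim71 and name no mock treatment of Trim71-intact cells, so loss of Trim71 and the earlier exposure to the drug cannot be told apart. The libraries used numbered 4 in WT-WT, 4 in KO-WT, 5 in WT-KO and 5 in KO-KO. They came from 4 clonal lines, 1 and E3 with Lin28a and 1-4 and C1 without it, so the Lin28a genotype and the clone cannot be told apart. Clones 1 and 1-4 were harvested on days 1 and 5, clones E3 and C1 on days 2 to 4. Replicates were harvests of these few lines. P-values measure the spread left between libraries once harvest day is taken out, and not that between independent lines.

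TRIM71 is an RNA-binding ubiquitin ligase that lowers the translation and stability of its target mRNAs. LIN28A binds precursors of the microRNA let-7 and blocks their maturation in stem cells. In worms, the counterpart of TRIM71 acts downstream of let-7 and represses counterparts of the EGR factors and of their NAB cofactors. In mammalian cells, growth factors such as FGF act through RAS, RAF, MEK and ERK on ETS factors of the ELK family and on serum response factor, and so switch on Egr1, Fos and Ier2. NAB proteins bind EGR factors and hold back their activity, while FOS and JUN proteins pair to form AP-1, which acts at its own DNA motif.

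The labels were checked on the targeted transcripts. Trim71 reached at most 9.55 in the null libraries and was at least 10.04 in the intact ones. Mean Lin28a was 10.13 in WT-WT and 9.84 in KO-WT, against 8.47 in WT-KO and 8.28 in KO-KO. All values in this text are log2 normalised expression from which differences between harvest days had already been removed, and library depth is unknown. The part of each gene that was deleted is not given in the sources used here. A fold applies to this scale only.

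Promoter stretches of 4 of the genes that differed between genotypes are shown, each the 150 bases before the RefSeq transcription start (GRCm38.p6), 5′ to 3′ on the strand of the gene. RefSeq windows matched 7 of the 10 names: Egr2, Nab1, Nab2, Fos, Jun, Junb and Ier3. Capitals mark the motif chosen for each stretch, which is TGACNTCA for Jun, TGACG for Junb and Fos, and the EGR motif GCGNGGGCG for Nab1.
Jun, chr4:95052223-95052372, minus strand: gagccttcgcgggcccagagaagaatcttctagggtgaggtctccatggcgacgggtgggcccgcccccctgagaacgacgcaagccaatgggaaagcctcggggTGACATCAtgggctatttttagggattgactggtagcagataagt
Junb, chr8:84978749-84978898, minus strand: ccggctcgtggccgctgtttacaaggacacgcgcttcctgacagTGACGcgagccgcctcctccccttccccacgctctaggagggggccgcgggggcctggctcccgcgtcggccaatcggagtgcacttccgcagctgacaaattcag
Fos, chr12:85473740-85473889, plus strand: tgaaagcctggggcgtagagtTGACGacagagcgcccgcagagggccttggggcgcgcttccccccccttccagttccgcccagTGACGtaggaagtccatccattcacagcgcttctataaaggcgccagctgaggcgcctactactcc
Nab1, chr1:52500449-52500598, minus strand: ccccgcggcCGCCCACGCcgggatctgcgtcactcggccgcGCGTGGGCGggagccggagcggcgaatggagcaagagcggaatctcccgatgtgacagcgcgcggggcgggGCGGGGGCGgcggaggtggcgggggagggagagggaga

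TGACNTCA is an AP-1 and CREB motif, and TGACG is its left part where its N is a G, so matches of the 2 can overlap. Both strands of the 250 bases before the start were searched. TGACNTCA was found 45 bases before the Jun start, and 8.55% of 27025 genes with a RefSeq window held it. TGACG was found 106 bases before the Junb start and 129 and 66 bases before the Fos start, against 19.8% of genes. The Nab1 window held the EGR motif 3 times, at 141 bases on the opposite strand and at 109 and 38 bases on the gene's own strand, against 5.33% of genes. It also held TGACG 123 bases before the start on the opposite strand, left in lower case above. A CArG box, the motif of serum response factor, was found in 4 of the 5 Egr2 windows. It was found in 1.47% of all windows and for 1.62% of genes. TGACG was found 2 times in 3 of the 5 Egr2 windows, at 111 and 55 bases before the start for the first of these. Those 3 windows held the CArG box at 72, 73 and 133 bases. Windows of 1 gene can overlap, so this may be the same box. The windows of Nab2 and Ier3 held none of these motifs, nor the AP-1 motif TGANTCA, which 7.82% of genes held. A match describes the letters only.

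Egr1 encodes the EGR factor most often used as a readout of growth signalling. It stood at 7.34, 7.64, 7.35 and 7.50 in the 4 WT-WT libraries and at 7.50, 7.75, 7.57 and 7.71 in KO-WT. Without Lin28a it stood at 8.73, 9.24, 8.59, 9.08 and 8.71 in WT-KO and at 9.24, 8.73, 8.94, 8.94 and 9.01 in KO-KO. Every Lin28a-null library lay above every Lin28a-intact library. WT-WT averaged 7.46 ± 0.146 and KO-WT 7.63 ± 0.117 (SD, n = 4 each). WT-KO averaged 8.87 ± 0.275 and KO-KO 8.97 ± 0.180 (SD, n = 5 each). WT-KO was 1.41 ± 0.130 (SE) log2 units above WT-WT, a 2.66-fold level, and KO-KO was 1.34 ± 0.130 above KO-WT, a 2.53-fold level. These 2 gaps were of like size in each pair of clones. WT-KO minus WT-WT was 1.47 in clones E3 and C1 and 1.30 in clones 1 and 1-4. KO-KO minus KO-WT was 1.27 and 1.40, the latter with 1 KO-WT library.

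Loss of Trim71 did not pass the test for Egr1. KO-WT was 0.18 ± 0.140 (SE) log2 units above WT-WT, with an adjusted p of 0.429 in limma and a 95% interval from -0.12 to 0.47. KO-WT was the higher in 3 of 3 same-day pairs. KO-KO was 0.10 ± 0.120 above WT-KO, with an adjusted p of 0.670, and was the higher in 3 of 5 pairs. In clones E3 and C1 that second difference was -0.10, and in clones 1 and 1-4 it was 0.41, with adjusted p of 0.858 and 0.0564. The difference between the Trim71 effects with and without Lin28a was -0.07 (adjusted p = 0.883).

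**Figure D1:**
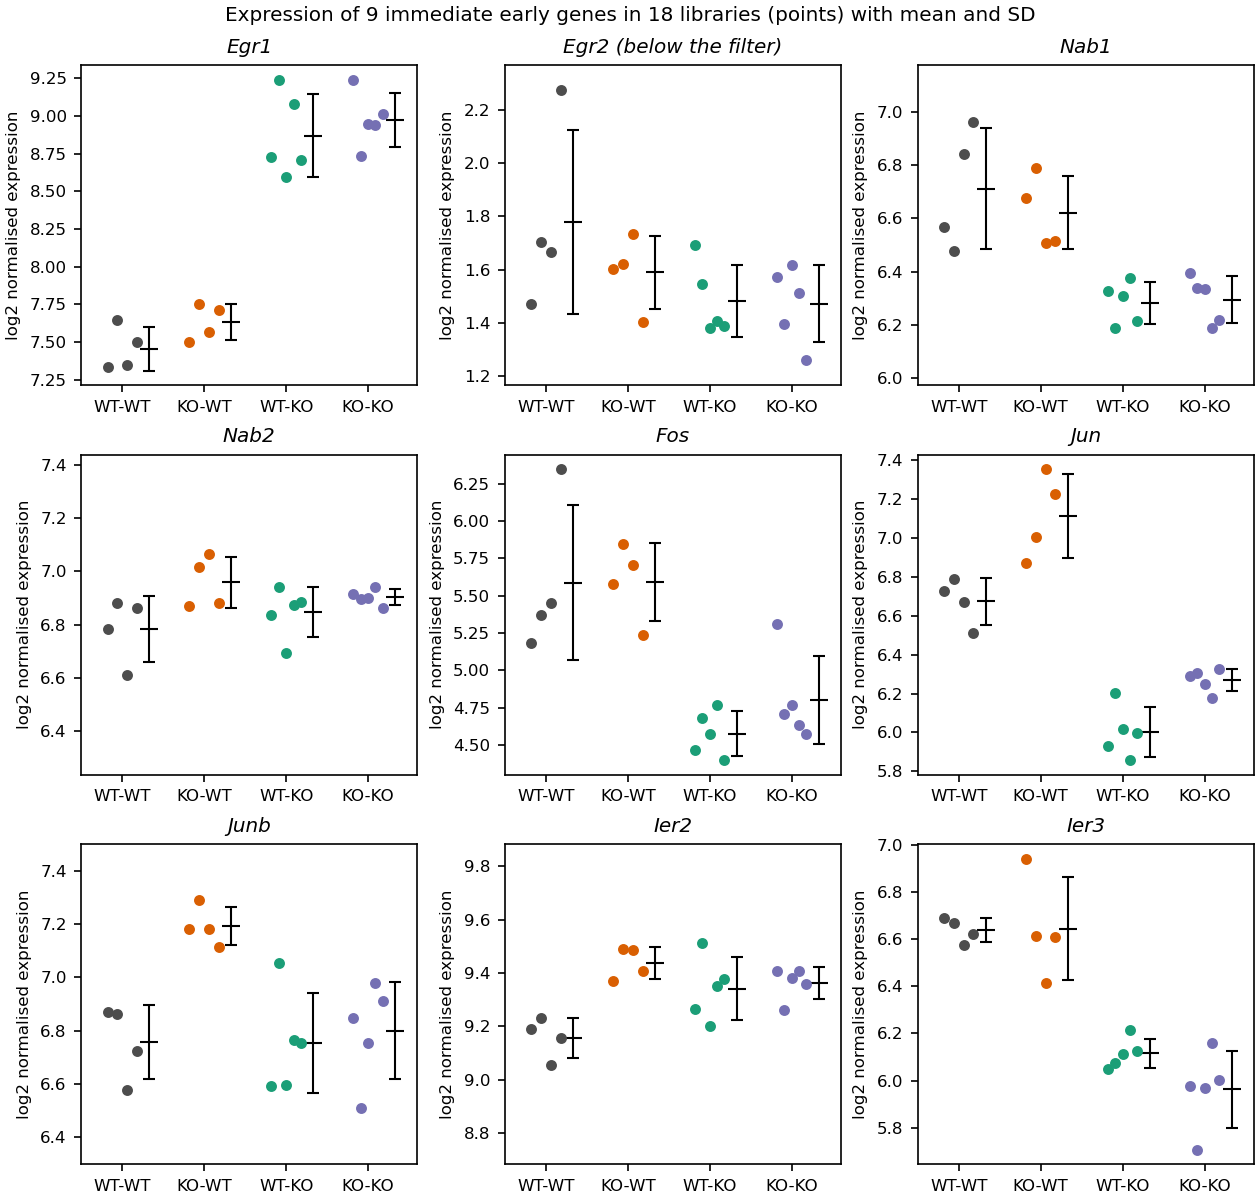
Log2 normalised expression (vertical axis, scaled per gene) of 9 immediate early genes in the 18 libraries, by genotype with the Trim71 state first; points are libraries, bars the mean and SD. Egr1 lies between 7.34 and 7.75 with Lin28a and between 8.59 and 9.24 without it, while Jun, Nab1 and Ier3 lie lower in every library without Lin28a.

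Egr2, a second EGR factor known for its role in hindbrain and Schwann cells, stood at low values. Its values ran from 1.26 to 2.27 over the 18 libraries, and every one was below the filter of log2 of 10, which is 3.32. The highest value was WT-WT replicate 4, and the other 17 libraries lay between 1.26 and 1.73. No difference was computed for it.

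The 2 corepressors of EGR factors did not move together. Nab1 stood at 6.57, 6.48, 6.84 and 6.96 in WT-WT, at 6.68, 6.79, 6.51 and 6.52 in KO-WT, at 6.33, 6.19, 6.31, 6.38 and 6.22 in WT-KO, and at 6.40, 6.34, 6.34, 6.19 and 6.22 in KO-KO. Every library without Lin28a lay below every library with it. WT-KO was 0.43 ± 0.101 (SE) log2 units below WT-WT, and KO-KO was 0.33 ± 0.101 below KO-WT. Trim71 loss gave -0.09 ± 0.109 for Nab1 with Lin28a (adjusted p = 0.619) and 0.01 ± 0.0933 without it (adjusted p = 0.956).

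Nab2, which is itself a known target of EGR1, stood between 6.61 and 6.88 in WT-WT, between 6.87 and 7.06 in KO-WT, between 6.69 and 6.94 in WT-KO and between 6.86 and 6.94 in KO-KO. Its ranges overlapped in every comparison of genotypes. WT-KO minus WT-WT was 0.06 ± 0.0743 (SE) log2 units and KO-KO minus KO-WT was -0.06 ± 0.0743. KO-WT minus WT-WT was 0.17 ± 0.0803, with an unadjusted p of 0.0459 and an adjusted p of 0.163 in limma. The value was higher in KO-WT in 3 of 3 same-day pairs, and the adjusted p was 0.0490 in a fit without day. That fit counts degrees of freedom that the removal of day effects had used, so its p is too small. KO-KO minus WT-KO was 0.06 ± 0.0688 (adjusted p = 0.689).

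The AP-1 subunits Jun, Junb and Fos are described in turn. Jun stood at 6.73, 6.79, 6.67 and 6.51 in WT-WT and at 6.87, 7.00, 7.35 and 7.23 in KO-WT. It stood at 5.93, 6.20, 6.02, 5.86 and 6.00 in WT-KO and at 6.29, 6.31, 6.25, 6.18 and 6.32 in KO-KO. Each Trim71-null group lay above its Trim71-intact partner on average, and every Lin28a-null library lay below every Lin28a-intact library. WT-KO was 0.67 ± 0.101 (SE) log2 units below WT-WT, and KO-KO was 0.84 ± 0.101 below KO-WT. KO-KO was 0.40 ± 0.101 below WT-WT.

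Jun rose on loss of Trim71 with Lin28a intact. KO-WT was 0.44 ± 0.109 (SE) log2 units above WT-WT, 1.36-fold, with an adjusted p of 0.0213 in limma. All 4 KO-WT libraries lay above all 4 WT-WT libraries. Across all genes tested, 11.2% were called in this comparison, 4.74% higher and 6.43% lower. The call of Jun was lost without WT-WT replicate 3 (adjusted p = 0.0604), WT-WT replicate 4 (0.0871), KO-WT replicate 3 (0.0923) or KO-WT replicate 4 (0.0616). Without Lin28a, KO-KO was 0.27 ± 0.0933 above WT-KO and higher in 5 of 5 same-day pairs, with an adjusted p of 0.0879, against 8.38% of genes called, 4.26% higher and 4.12% lower. That value was called at an adjusted p of 0.0343 without WT-KO replicate 2, 0.0454 without KO-WT replicate 1 and 0.0475 without KO-WT replicate 3. Without day in the fit the adjusted p was 0.0260. That fit counts degrees of freedom that the removal of day effects had used, so its p is too small. The difference between the 2 effects was -0.17 ± 0.143 (adjusted p = 0.579).

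Junb, a JUN relative that can restrain JUN, rose on loss of Trim71 with Lin28a intact. It stood at 6.87, 6.86, 6.58 and 6.72 in WT-WT and at 7.18, 7.29, 7.18 and 7.11 in KO-WT, with no overlap. KO-WT was 0.43 ± 0.120 (SE) log2 units above WT-WT (adjusted p = 0.0311 in limma). The call was lost without WT-WT replicate 3 (adjusted p = 0.124), WT-WT replicate 4 (0.0893), KO-WT replicate 2 (0.0902) or KO-WT replicate 3 (0.0787). Without Lin28a the 2 groups overlapped, at 6.59, 7.05, 6.60, 6.76 and 6.75 in WT-KO and 6.85, 6.51, 6.75, 6.98 and 6.91 in KO-KO, and the difference was 0.05 ± 0.102 (adjusted p = 0.838). The difference between these effects was -0.39 ± 0.157, with an unadjusted p of 0.0253 and an adjusted p of 0.288, so the Trim71 effects were not shown to differ. WT-KO minus WT-WT was -0.01 ± 0.111 and KO-KO minus KO-WT was -0.39 ± 0.111.

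Fos, the partner of JUN proteins, had the largest SD of the 9 genes in WT-WT, KO-WT and KO-KO, at 0.518, 0.262 and 0.294. It stood at 5.19, 5.37, 5.45 and 6.35 in WT-WT and at 5.58, 5.85, 5.70 and 5.23 in KO-WT. Without Lin28a it stood at 4.47, 4.68, 4.57, 4.77 and 4.40 in WT-KO and at 5.31, 4.71, 4.77, 4.64 and 4.58 in KO-KO. WT-WT replicate 4 and KO-KO replicate 1 stood above the rest of their groups, and KO-KO replicate 1 reached into the range of the Lin28a-intact libraries. WT-WT replicate 4 shares its day with KO-WT replicate 4, the lowest of its group. Removal of day effects ties such libraries together, so a high value goes with lower ones of its day. WT-KO was 1.01 ± 0.211 (SE) log2 units below WT-WT without overlap, and this gap was 0.67 without WT-WT replicate 4. KO-KO was 0.79 ± 0.211 below KO-WT, with overlap. Within clones 1 and 1-4, which hold 1 KO-WT library, this second gap was 0.23. Loss of Trim71 gave 0.00 ± 0.228 with Lin28a (adjusted p = 0.991), and without WT-WT replicate 4 the value was 0.38 (adjusted p = 0.151). It gave 0.22 ± 0.196 without Lin28a (adjusted p = 0.546), and 0.03 without KO-KO replicate 1.

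Ier2, a nuclear early response protein, rose on loss of Trim71 with Lin28a intact. It stood at 9.19, 9.23, 9.05 and 9.16 in WT-WT and at 9.37, 9.49, 9.49 and 9.41 in KO-WT, again without overlap. KO-WT was 0.28 ± 0.0678 (SE) log2 units above WT-WT, 1.21-fold, with an adjusted p of 0.0191 in limma. The call was lost without WT-WT replicate 3 (adjusted p = 0.0791), WT-WT replicate 4 (0.0582), KO-WT replicate 2 (0.0593) or KO-WT replicate 3 (0.0671). Without Lin28a, WT-KO stood between 9.20 and 9.51 and KO-KO between 9.26 and 9.41, and the difference was 0.02 ± 0.0581 (adjusted p = 0.872). The difference between the Trim71 effects was -0.26 ± 0.0893, with an unadjusted p of 0.0103 and an adjusted p of 0.239. WT-KO minus WT-WT was 0.18 ± 0.0628, and KO-KO minus KO-WT was -0.08 ± 0.0628.

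Ier3, an early response gene linked to cell survival, lay lower in the Lin28a-null cells. It stood at 6.69, 6.67, 6.58 and 6.62 in WT-WT, at 6.94, 6.61, 6.41 and 6.61 in KO-WT, at 6.05, 6.07, 6.11, 6.21 and 6.13 in WT-KO, and at 5.98, 5.71, 5.97, 6.16 and 6.00 in KO-KO. No Lin28a-null library reached the lowest Lin28a-intact library. WT-KO was 0.52 ± 0.103 (SE) log2 units below WT-WT, and KO-KO was 0.68 ± 0.103 below KO-WT. Loss of Trim71 gave 0.00 ± 0.111 with Lin28a (adjusted p = 0.986) and -0.15 ± 0.0950 without it (adjusted p = 0.368). KO-WT replicate 1 was the highest of these 8 libraries and had no WT-WT library from its day. KO-WT was the lower in 3 of 3 same-day pairs, and without that library the difference was -0.10 ± 0.0869 (adjusted p = 0.458 in limma). KO-KO was the lower in 5 of 5 same-day pairs.

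**Figure D2:**
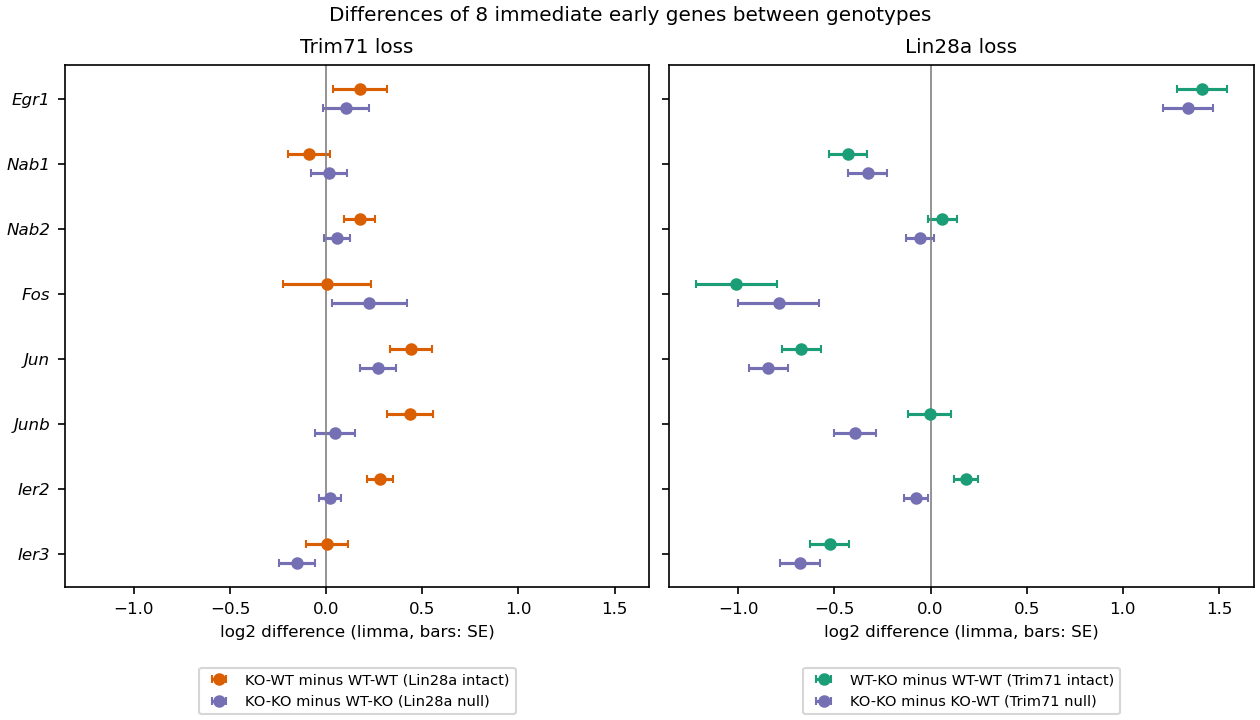
Log2 difference (horizontal axis, limma estimate with SE) of 8 immediate early genes on loss of Trim71 (left) and on loss of Lin28a (right), each with and without the other gene. Jun, Junb and Ier2 lie between 0.28 and 0.44 in KO-WT minus WT-WT, and Egr1 stands at 1.41 and 1.34 on the right, where Fos, Jun, Nab1 and Ier3 lie below 0.

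The groups with and without Lin28a did not overlap for 5 of the 8 tested genes with Trim71 (Egr1, Nab1, Fos, Jun and Ier3) and for 5 without it (Egr1, Nab1, Jun, Junb and Ier3). KO-KO and WT-WT did not overlap for Egr1, Nab1, Jun, Ier2 and Ier3. In these 3 comparisons the groups did not overlap for 40.8%, 40.7% and 44.5% of all genes, and 42.4%, 42.8% and 45.6% were called in limma. Since the list was chosen from them nothing is read from these counts.

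Of the 8 genes tested, 3 were called on loss of Trim71 with Lin28a intact, all higher: Jun, Junb and Ier2. Among all genes 11.2% were called in this comparison, 4.74% higher. With day effects removed, which can narrow spread, the 2 groups did not overlap for the same 3 genes and for 28.2% of all genes. At an unadjusted p under 0.05 there were 4, with Nab2. None was called without Lin28a, where 8.38% of all genes were and only Jun of the 8 had an unadjusted p under 0.05 in limma. None was called for the difference between the 2 effects, where Junb and Ier2 had an unadjusted p under 0.05, and 0.0200% of all genes were called. The 3 calls were lost when only WT-WT and KO-WT entered the fit, with adjusted p of 0.114 for Jun, 0.0819 for Junb and 0.108 for Ier2. Within clones E3 and C1 the 3 differences were 0.34, 0.50 and 0.31. Within clones 1 and 1-4, which hold 1 KO-WT library, they were 0.63, 0.31 and 0.23. None was called in either pair of clones alone.

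Transcript GC content moved with the Trim71 effect when Lin28a was intact. The rank correlation across genes between GC content and KO-WT minus WT-WT was 0.50, against 0.01 for KO-KO minus WT-KO. Genes are not independent replicates, and this is a description. The Junb transcript ranked at the 98.6th percentile of GC content among the genes tested, Ier2 at the 97.0th and Jun at the 78.9th. With the GC and length trend removed, Jun kept its call at 0.37 (adjusted p = 0.0386 in limma), while Junb stood at 0.31 (adjusted p = 0.0906) and Ier2 at 0.16 (adjusted p = 0.128).

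Other immediate early genes were taken from a list of 35, of which 30 were in the table and 28 were tested. Loss of Trim71 with Lin28a intact raised 6 and lowered none, where 4.74% of all genes were called higher and 6.43% lower, with a list median of 0.16 against -0.0046 for all genes. Without Lin28a it again raised 6 and lowered none, against 4.26% and 4.12% of all genes, with a median of 0.11 against -0.0093. The count of 6 with Lin28a was 10 without WT-KO replicate 2, and the count without Lin28a was 3 without WT-KO replicate 5. Btg2, Dusp1 and Hbegf were called in both. These 2 comparisons share no library, but they share harvest days, the fit and its estimate of the spread. They are therefore not independent. Btg2, an antiproliferative gene, rose by 0.50 ± 0.0910 (SE, adjusted p = 0.00420 in limma) with Lin28a and by 0.57 ± 0.0779 (adjusted p = 0.000351) without it. Hbegf, a ligand of the EGF receptor, rose by 0.49 ± 0.102 (adjusted p = 0.00978) and 0.53 ± 0.0876 (adjusted p = 0.00144). These Btg2 and Hbegf calls were kept in each of 18 fits that left out 1 library.

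Nr4a1, an orphan nuclear receptor of the immediate early class, rose by 0.43 ± 0.0608 (SE) log2 units on loss of Trim71 with Lin28a (adjusted p = 0.000752 in limma). Without Lin28a its difference was 0.16 ± 0.0521 (adjusted p = 0.0770), and 0.0426 without WT-KO replicate 2. Plk2, a polo-like kinase, rose by 0.42 ± 0.0914 without Lin28a (adjusted p = 0.00956), and its difference with Lin28a was 0.19 ± 0.107 (adjusted p = 0.261). No gene of the list was called for the difference between the 2 Trim71 effects, so none was shown to differ. In clones E3 and C1 alone, none of the genes named here, of this list or of the lists that follow, kept its call on loss of Trim71, in fits of fewer libraries. With only WT-WT and KO-WT in the fit, Btg2 and Jund alone kept theirs among the genes named for that comparison.

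Loss of Lin28a went with lower levels over most of this list. With Trim71 intact, 19 of 28 genes were called lower and 2 higher, with a list median of -0.50, where 22.0% of all genes were called lower and 20.3% higher. Without Trim71, 21 were lower and 1 higher, with a median of -0.58, against 22.0% and 20.8% of all genes. All 19 genes called lower with Trim71 were also called lower without it. The 2 comparisons again share no library but share harvest days and the fit. Cyr61 and Ctgf, matricellular genes induced by serum and YAP, fell by 1.51 ± 0.0999 and 1.38 ± 0.114 (SE) with Trim71 intact and by 1.40 ± 0.0999 and 1.53 ± 0.114 without it. Klf6, a zinc finger factor, fell by 1.41 ± 0.107 and 1.25 ± 0.107, and Ier5, an early response regulator of heat shock factor, fell by 1.29 ± 0.143 and 1.32 ± 0.143. Sgk1, a serum- and glucocorticoid-induced kinase, rose by 0.78 ± 0.0338 and 0.85 ± 0.0338. Sgk1 thus stood on the other side of 0 from most of the list. So did some others, among them Zfp36l1 and Trib1. Mean Zfp36l1 was 8.96 in WT-WT and 9.19 in WT-KO, and 9.29 in KO-WT and 9.40 in KO-KO. Mean Trib1 was 6.96 in WT-WT and 7.04 in WT-KO, and 7.21 in KO-WT and 7.33 in KO-KO. Egr1 had been chosen for being higher without Lin28a, so nothing is read from its side of 0. With both genes lost, 18 of the 28 were called lower and 4 higher against WT-WT, where 24.6% and 21.0% of all genes were called.

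**Figure D3:**
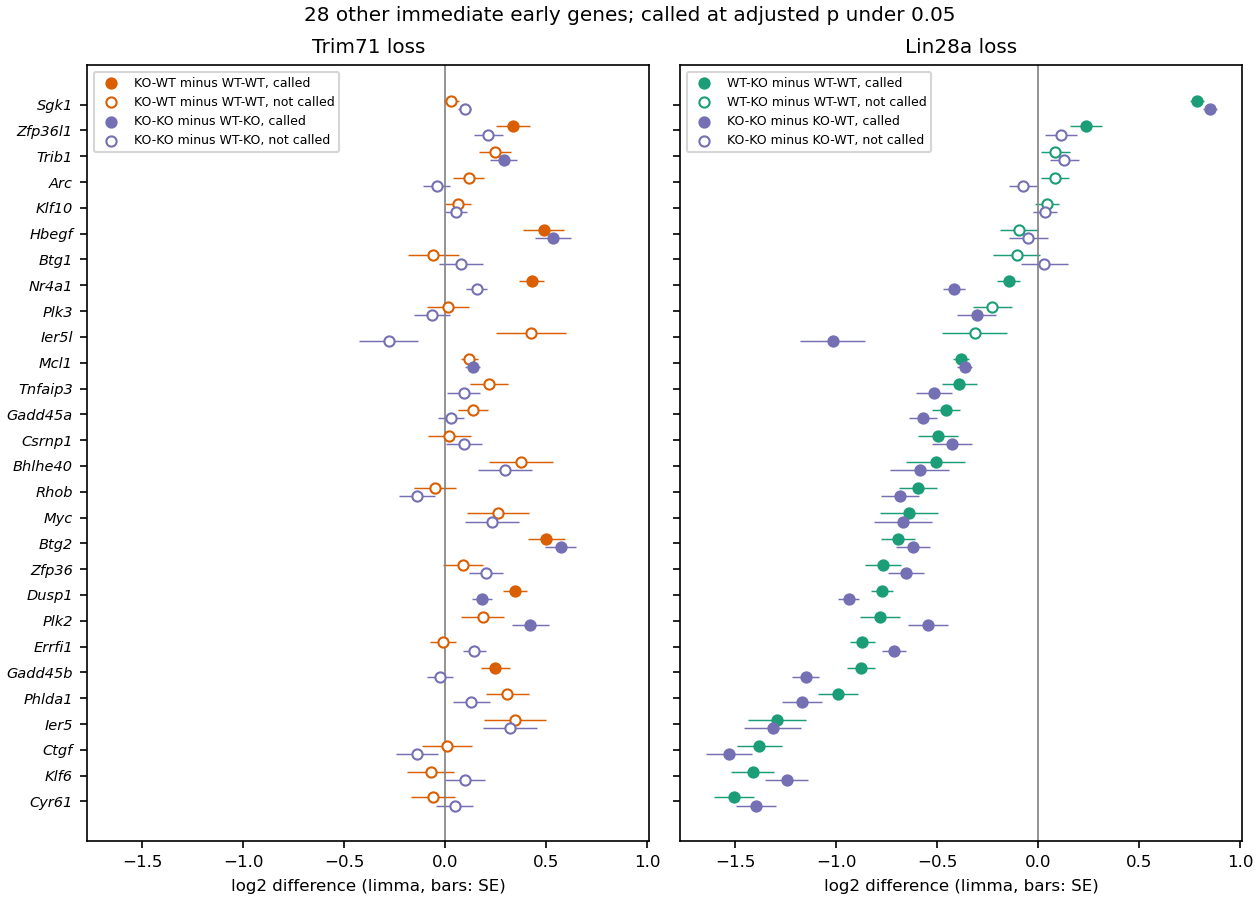
Log2 difference (horizontal axis, limma estimate with SE) of 28 further immediate early genes on loss of Trim71 (left) and of Lin28a (right); filled points were called at an adjusted p under 0.05. On the left 6 genes were called higher in each comparison, and on the right 19 and 21 were called lower, with Sgk1 at 0.78 and 0.85.

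Btg2 and Dusp1 moved in opposite directions on loss of the 2 proteins. Btg2 fell by 0.69 ± 0.0842 (SE) log2 units in WT-KO against WT-WT, and Dusp1, the phosphatase that switches off MAP kinases, fell by 0.78 ± 0.0536. On loss of Trim71, Dusp1 rose by 0.35 ± 0.0579 with Lin28a (adjusted p = 0.00265 in limma) and by 0.18 ± 0.0496 without it (adjusted p = 0.0326). The second Dusp1 call was lost when WT-KO replicate 1, 2, 4 or 5 or KO-KO replicate 1, 3 or 4 was left out, with adjusted p between 0.0519 and 0.124. WT-WT enters both the first Trim71 and the first Lin28a comparison, so these values are not independent of each other.

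Relatives of the EGR and AP-1 factors were tested next. Of 11 tested of 15 listed, 1 was called higher on loss of Trim71 with Lin28a, where 4.74% of all genes were: Jund, at 0.64 ± 0.144 (SE, adjusted p = 0.0142 in limma). That call was lost without WT-WT replicate 4 (adjusted p = 0.0645) or KO-WT replicate 3 (0.0612). None was called on loss of Trim71 without Lin28a, where Jund was at 0.17 ± 0.124 (adjusted p = 0.461). On loss of Lin28a, 2 were called higher and 3 lower with Trim71 intact, and 4 and 6 without Trim71. The shares of all genes called were 20.3% higher and 22.0% lower in the first comparison and 20.8% and 22.0% in the second. Fosl2, a FOS relative, fell by 1.32 ± 0.0828 and 1.28 ± 0.0828, and Atf3, a stress-induced partner of JUN, fell by 0.64 ± 0.113 and 0.61 ± 0.113.

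Of 9 regulators at the serum response element and CRE, none was called higher and 2 lower on loss of Trim71 with Lin28a, and none in either direction without it, where 6.43% of all genes were called lower in the first comparison and 4.26% and 4.12% higher and lower in the second. On loss of Lin28a, 3 were higher and 2 lower with Trim71, and 4 and 2 without it. The 2 of 9 called lower was close to the 22.0% of all genes, while 20.3% and 20.8% of all genes were called higher. Elk3, an ELK family factor that can repress, fell by 0.80 ± 0.102 (SE) with Trim71 and 0.82 ± 0.102 without it, while Elk1 rose by 0.31 ± 0.0612 and 0.28 ± 0.0612. The Elk1 calls were lost in clones E3 and C1 alone for the first value (adjusted p = 0.0880 in limma) and in clones 1 and 1-4 alone for the second (adjusted p = 0.124).

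Of 19 genes of the FGF and ERK cascade, 1 was higher and 3 lower on loss of Trim71 with Lin28a, and 3 were higher and 1 lower without it. Among all genes these shares were 4.74% and 6.43%, and 4.26% and 4.12%. Fgfr2, an FGF receptor, fell on loss of Trim71 by 0.40 ± 0.0725 (SE, adjusted p = 0.00430 in limma) and by 0.31 ± 0.0621 (adjusted p = 0.00552). Loss of Lin28a raised 5 and lowered 5 with Trim71, and raised 7 and lowered 5 without it. The counts of 5 were close to the shares of all genes, 20.3% higher and 22.0% lower with Trim71 and 20.8% and 22.0% without it. Among the genes called with Trim71 intact were Fgfr2, which fell by 0.76 ± 0.0671, and the ribosomal S6 kinase gene Rps6ka2, which rose by 0.73 ± 0.0717. Of 13 ERK target and feedback genes, 2 rose on loss of Trim71 with Lin28a and 3 without it, and none fell, against 4.74% and 4.26% of all genes called higher. Etv4, an ETS factor induced by FGF, rose by 0.37 ± 0.0740 (adjusted p = 0.00723) and by 0.27 ± 0.0633 (adjusted p = 0.0158). The second Etv4 call was lost without WT-KO replicate 4 (adjusted p = 0.0571) or WT-KO replicate 5 (0.0526). Loss of Lin28a raised 3 and lowered 4 of these genes with Trim71, and raised 4 and lowered 6 without it, beside the shares of all genes given above. With Trim71 intact the ERK phosphatase gene Dusp6 fell by 0.54 ± 0.113 and the phosphatase gene Dusp5 by 0.70 ± 0.0953, while Etv5 rose by 0.36 ± 0.0484.

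Markers of other cell types moved with the genotypes. Across all genes 22.0% were called lower in both Lin28a comparisons, and 20.3% and 20.8% higher. The trophectoderm list summed to between 4493 and 5987 linear units (2 raised to the deposited value) in WT-WT and between 4496 and 5518 in KO-WT, against 1093 to 1325 in WT-KO and 972 to 1223 in KO-KO. Of its 6 tested genes, 4 were called lower on loss of Lin28a with and without Trim71. The keratin genes Krt8 and Krt18 fell with Trim71 intact, with log2 differences of -4.22 and -4.20, while the trophectoderm factor Eomes stood between 5.23 and 5.70 in all 18 libraries, and Cdx2, between 1.94 and 3.13, lay below the filter. The primitive endoderm list was called lower in 6 of 6 genes with Trim71 and in 4 of 6 without it. Its sum was also higher on loss of Trim71 without overlap, at 1904 to 2453 in KO-WT against 1447 to 1779 in WT-WT, and at 1365 to 1680 in KO-KO against 964 to 1259 in WT-KO. Of its 6 genes, 1 and 2 were called higher in these Trim71 comparisons, where 4.74% and 4.26% of all genes were, with list medians of 0.24 and 0.29. Pluripotency genes were called higher in 8 of 10 and 6 of 10, with sums of 39112 to 40937 in WT-WT and 48509 to 55077 in WT-KO. Of 6 fibroblast genes tested, 4 were called lower and 1 higher in both Lin28a comparisons. The part of these lists in the values of the immediate early genes, on loss of either protein, was not tested. In these bulk samples, fewer cells of a type and less RNA per cell cannot be told apart.

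Heat shock genes, which respond to handling, were called lower in 7 of 9 tested on loss of Lin28a with Trim71 and in 5 of 9 without it, where 22.0% of all genes were called lower in both comparisons. Their sums ran from 89494 to 94152 in WT-WT, from 77308 to 84670 in KO-WT, from 66342 to 76032 in WT-KO and from 68777 to 76833 in KO-KO. On loss of Trim71, 1 was called higher and 1 lower with Lin28a, and 1 higher without it, against 4.74%, 6.43% and 4.26% of all genes. Their part in the values of the early genes was not tested.

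**Figure D4:**
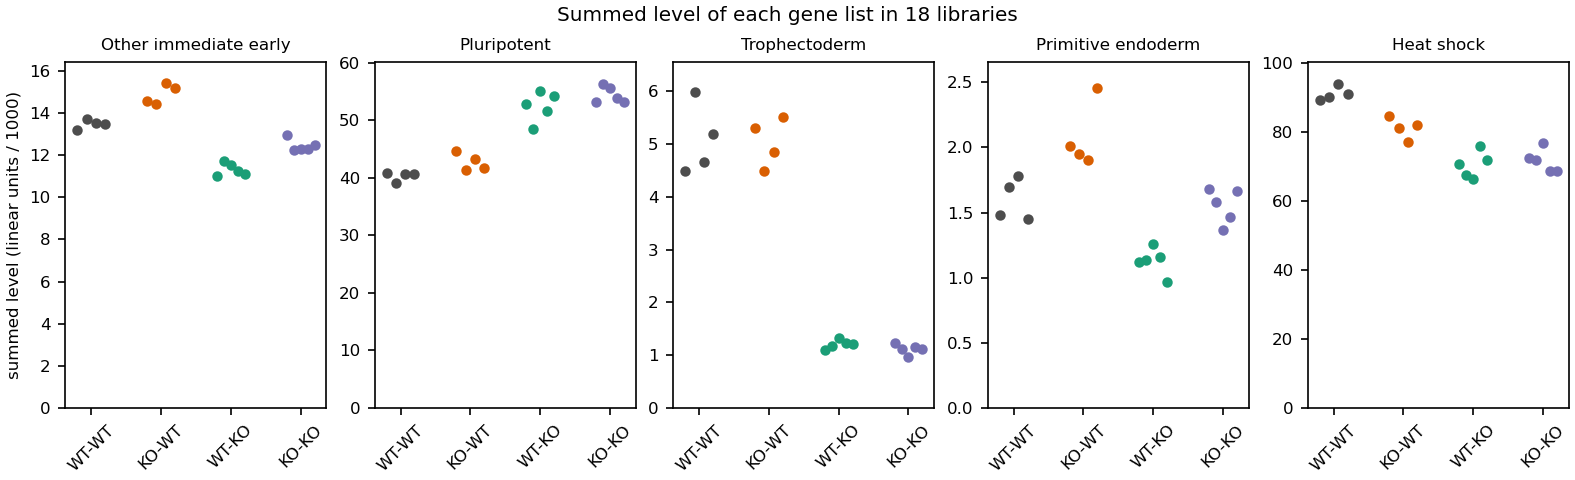
Summed level of 5 gene lists (vertical axis from 0, in linear units scaled down as the axis states) in each of the 18 libraries by genotype. The trophectoderm sum lies between 4493 and 5987 in WT-WT and between 1093 and 1325 in WT-KO, and the sum over other immediate early genes is highest in KO-WT, at 14459 to 15418.

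Within a genotype the early genes also varied from library to library. Since day effects had been removed, a library above its genotype mean is offset by lower libraries of the same day. The ranks that follow are therefore not separate features of single libraries. WT-KO replicate 2 was the highest of its 5 libraries for Egr1, Jun, Junb, Nab2 and Ier2. KO-KO replicate 1 was the highest of its group for Egr1, Fos and Nab1, and WT-WT replicate 4 was the highest of its group for Fos, Egr2 and Nab1.

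The pattern of Egr1 over the 18 libraries was set beside that of every tested gene, each centred on its own mean. By root mean square distance the closest were Notum, a secreted enzyme that inactivates WNT proteins, at 0.25 log2 units, Myo1f, a myosin, at 0.25, the zinc finger factor Sall1 at 0.26, the actin-binding Dmtn at 0.26 and Zfp819 at 0.27. The median distance over all tested genes was 0.72. Notum had means of 5.62 in WT-WT, 5.81 in KO-WT, 6.76 in WT-KO and 6.82 in KO-KO. None of the other 7 early genes tested was among these 5. Nothing is read from this, since these were 5 places among 14988 genes.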

How the data were processed

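Per the labels' protocols, RNA was extracted with TRIzol, made into libraries with the Illumina TruSeq RNA kit (v2) and sequenced in paired ends on a HiSeq1500. The submitters' processing notes name CASAVA 1.8, STAR and DESeq2; the genome build, annotation and counting step are not given in the sources used here. The deposited table holds values that the authors had normalised and put on a log scale, read here as log2 from the values; they run from -0.71 to 16.30, and since read depth cannot be recovered from them, intervals for counting error and count tests were not used. The authors' values carried no difference between harvest days: the largest day term was 1.7e-08. KO-WT replicate 5, the only library of day 6, lay within 1.5e-08 of the average of the remaining KO-WT libraries at every gene and was left out, which left 18 of 19 libraries.

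Genes at log2 of 10 or more in at least 4 libraries were tested (14988 of 21685) in limma 3.58.1 (R 4.3.3; lmFit, contrasts.fit, eBayes with trend), with genotype means plus day terms and 10 residual degrees of freedom. P-values were adjusted over all genes by Benjamini-Hochberg and called under 0.05. Libraries of 1 day are paired per the labels, which cannot be checked by correlation once day effects are gone. On simulated data, 82.0% of 200 genes changed by 0.5 log2 units in KO-WT minus WT-WT were recovered among 14988, and 4.52% of calls were false. At 1 log2 unit these values were 99.5% and 4.33%. The simulated noise was independent between genes and libraries, without clone or GC trends. These rates are therefore not those of the measured calls.

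The members, gene lists, motifs and rules were chosen with earlier results of these data known. Named genes were all members, the called genes of each list with the largest differences or with calls in several comparisons, and the 5 genes nearest Egr1; a few more were named after their values were seen. Lists were of EGR and AP-1 relatives, serum response and CRE regulators, the ERK cascade, ERK feedback, other immediate early genes, heat shock, and pluripotency, fibroblast, trophectoderm and primitive endoderm markers. Alternatives were a fit without day, removal of GC and length trends, other scalings and filters, single pairs of clones, fewer genotypes or days, and leaving out each library.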

Additional observations from a re-analysis of the deposited data

Results flagged for a closer look

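Fos in KO-KO replicate 1 stood at 5.31, far from the other 4 libraries of its genotype, of which the highest was at 4.77. The gap to that library was 0.740 of the range of the group, above Dixon's 95% critical value of 0.71 for 5 libraries. This was 1 of 36 groups of libraries checked, and chance flags about 1 in 20 where values are independent. Here they are not, since removal of day effects ties each library to the others of its day. The critical value is therefore a guide only. On the same day WT-WT replicate 1 stood at 5.19 and WT-KO replicate 1 at 4.47, below their genotype means of 5.59 and 4.58. The gap can therefore not be assigned to KO-KO replicate 1 alone.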

How the results depend on the processing

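The replicate block here is the harvest day. Without it, genes called rose from 1674 to 4219 for KO-WT minus WT-WT, from 1256 to 2618 for KO-KO minus WT-KO and from 3 to 673 for the interaction, which by construction counts degrees of freedom that the removal of day effects had used. It also called 12 and 10 other immediate early genes higher on loss of Trim71, against 6 and 6, and 1 of the 8 early genes without Lin28a, Jun, against 0; with Lin28a intact it called 4, with Nab2. With GC content and length trends removed under the replicate block, 1 of the 8 early genes was called on loss of Trim71, Jun, and the interaction had 0 genes.

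Clones E3 and C1 alone gave 10 genes called for KO-WT minus WT-WT, 153 for KO-KO minus WT-KO, 1 for the interaction, 2323 for WT-KO minus WT-WT, 3595 for KO-KO minus KO-WT (main 6412) and 2668 for KO-KO minus WT-WT. Clones 1 and 1-4 alone gave 344, 287, 0 and, for KO-KO minus KO-WT, 2293. Neither pair called any of the 8 early genes on loss of Trim71, so 0 against 3, and E3 and C1 called 0 other immediate early genes higher in either Trim71 comparison. Days with all 4 genotypes gave 474, 217 and 0 genes for the Trim71 comparisons and interaction, and 3 other immediate early genes higher without Lin28a. These fits hold fewer libraries. With only the 2 genotypes compared in the fit, 30 and 794 genes were called on loss of Trim71, with 0 early genes and 1 other immediate early gene with Lin28a. Without a trend in eBayes the interaction had 0 genes.

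Leaving out each library gave 528 (without WT-WT replicate 4) to 1978 genes for KO-WT minus WT-WT, 0 to 3 of the 8 early genes and 4 to 10 other immediate early genes higher. It gave 676 to 1392 genes for KO-KO minus WT-KO, 0 to 1 early genes and 3 to 8 other immediate early genes, and 0 to 4 genes for the interaction. Counts of other immediate early genes lower on loss of Lin28a (19, 21 and 18) stayed between 13 and 21 in every setting run. Untested early gene values that moved were, for KO-KO minus KO-WT, Nab2 at 0.04, Ier2 at 0.06 and Junb at -0.23 with GC trends removed, Junb at -0.22 and Fos at -0.23 in clones 1 and 1-4, and Ier3 at -0.50 on days with all 4 genotypes and -0.54 without KO-WT replicate 1. For KO-KO minus WT-WT, Egr1 was at 1.71 in clones 1 and 1-4 and Fos at -0.44 without WT-WT replicate 4. The cause of these changes was not tested. No scaling moved the median of all genes by more than 0.1; GC removal called 588 genes higher and 533 lower for KO-WT minus WT-WT, against 711 and 963, 3880 and 2824 for WT-KO minus WT-WT, against 3049 and 3302, 3727 and 2925 for KO-KO minus KO-WT, against 3120 and 3292, and 3935 and 2952 for KO-KO minus WT-WT, against 3143 and 3691.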
